A study of Equus caballus with 8 samples.

Results

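The proteasome is the barrel-shaped protease that degrades ubiquitin-tagged proteins in the cytosol and nucleus. Its core is built of outer alpha rings, which gate the entrance, and inner beta rings, which carry the proteolytic sites. A regulatory cap of ATPases and other subunits recognizes, deubiquitinates and unfolds the substrate, and separate activators can open the core in place of the cap. In cells exposed to interferon, the catalytic beta subunits are exchanged for induced counterparts that favour the production of peptides for MHC class I, and the activators PSME1 and PSME2 are induced with them.

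The genes described here are those of the table whose symbol starts with PSMA to PSMG and a number, without the interferon-induced PSMB8 and PSMB9. The rule found 45 of the 15266 genes listed, and all 45 passed the filter on low values, at least 10 normalized counts in at least 4 libraries. Of these, 44 are genes of the proteasome or its assembly, and the other, PSMC3IP, shares the letters but encodes a protein named after its binding to PSMC3. The core class held 15 genes (8 alpha, 4 structural beta and 3 catalytic beta), the cap class 20 (6 ATPases, 11 other subunits and 3 assembly chaperones), and the activators 2, PSME3 and PSME4. Another 3 genes assist assembly of the core (PSMG1, PSMG3 and PSMG4), and 1 encodes the inhibitor PSMF1. The interferon-induced PSMB10, PSME1 and PSME2 were kept apart, which left 41 constitutive genes. No value below is corrected for transcript length, so levels were compared between libraries and not between genes, and ratios of genes serve only to compare libraries.

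The BM-MSCs (mesenchymal stem cells from bone marrow) are adherent stromal cells grown out of sternal marrow, here of 4 horses called D, J, L and W. From each horse, 1 culture stayed untreated and 1 received human recombinant TGF-β2 at 1 ng/ml, from isolation to passage 3 or 4 according to the labels, and every culture grew with fetal bovine serum and basic fibroblast growth factor. The study drew its donors from healthy adult Thoroughbreds and Thoroughbred crosses, mares and geldings, and an age for each of these 4 was not used here. Each horse gave 1 library per condition, so a difference between horses and a difference between cultures cannot be told apart. The deposited values were counts per gene divided by a size factor per library, called normalized counts here, and the reads behind them could be recovered as whole numbers. The untreated libraries held 40044240 to 57228675 reads on named genes and the treated libraries 39184554 to 46634539. The stromal markers ITGB1, CD44, THY1, ENG and NT5E were present in every library, but not at a constant level. Their log2 fold changes after treatment ran from -2.21 to 0.91. On the log2 scale untreated J stood from -2.24 to 0.84 against the mean of untreated D, L and W. The blood cell markers PTPRC, ITGAL, ITGB2, LAPTM5 and TYROBP summed to 67.9 to 535 normalized counts in untreated and 29.8 to 283 in treated libraries, and LAPTM5 and TYROBP were at 0 in the treated library of D. In D, J, L and W the sum was 67.9, 333, 535 and 233 untreated, highest in L, and 29.8, 55.7, 283 and 97.3 treated. It was lower after treatment in each horse, most in J.

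The untreated library of horse J stood apart from the other untreated libraries before any comparison of treatment. The 45 genes took 0.562% of its reads, against 0.364%, 0.292% and 0.294% for the untreated libraries of horses D, L and W. In the treated libraries the shares were 0.344%, 0.387%, 0.257% and 0.257% for horses D, J, L and W, so that J was again the highest but by a smaller margin. Untreated J was the highest of all 8 libraries for 27 of the 44 proteasome genes (61.4%), compared with 21.0% of all genes tested. This held for 12 of the 15 core genes, 8 of the 20 cap genes, the 3 core assembly genes, PSMF1 and the 3 interferon-induced genes. Results below are therefore given with and without horse J wherever it changes them.

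The alpha ring carried this difference most widely among the constitutive subunits. Over the mean of horses D, L and W, the untreated library of J was higher by a median of 0.94 on the log2 scale for the 8 alpha genes, 0.74 for the 4 structural beta genes and 0.44 for the 3 catalytic beta genes. The cap ATPases stood 0.53 higher and the other cap subunits 0.60, whereas the activators PSME3 and PSME4 stood 0.15 higher. The median over all genes tested was -0.01. PSMA3, an alpha subunit, had 3325, 6723, 2912 and 3234 normalized counts in the untreated libraries of D, J, L and W. PSMA6, another alpha subunit, had 2654, 5845, 2549.8 and 2727, and PSMA5 1899, 3966, 1592 and 1593, so in each case untreated J was apart and the other 3 lay close together. After treatment PSMA3 stood at 3489.9, 3946, 2842 and 3029.9, a much narrower spread. In the treated libraries the alpha genes of J were 0.35 above the other horses at the median. These 3 genes were named after their values were seen.

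**Figure D1:**
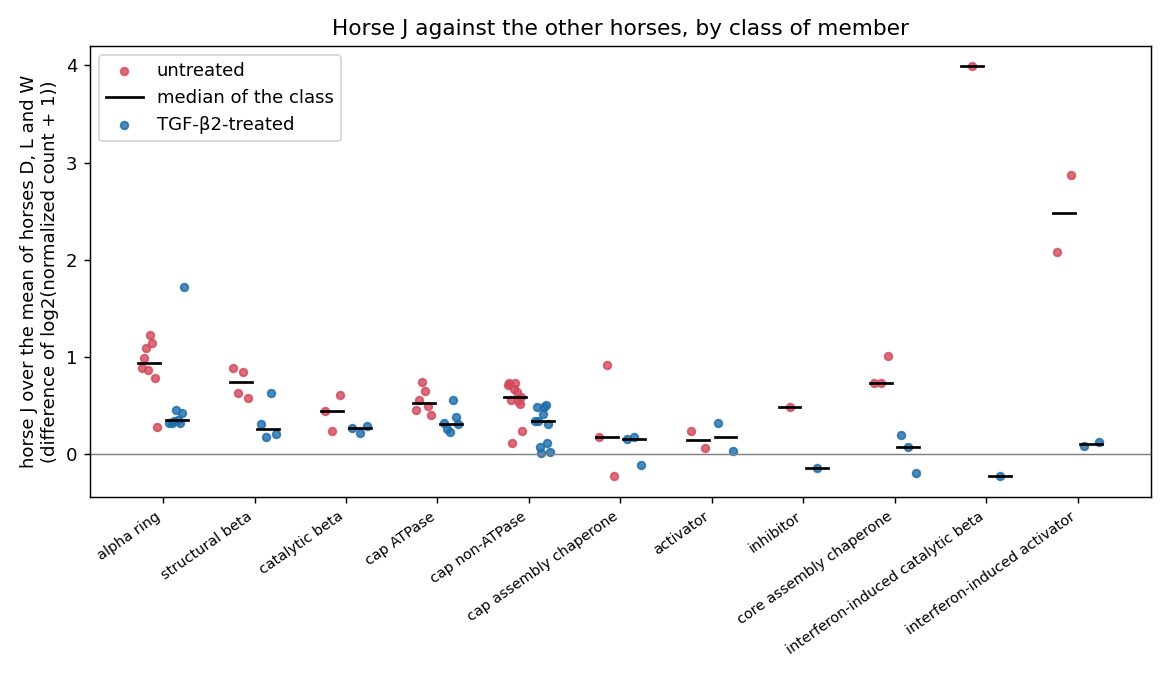
Horse J over the mean of horses D, L and W, as a difference of log2(normalized count + 1) on the vertical axis, for each gene (points) of each class on the horizontal axis, with untreated libraries in red, treated libraries in blue and bars at the class medians. The class medians of untreated J lie above 0 in every class, from 0.15 in the activators to 3.99 for PSMB10, and those of treated J lie between -0.22 and 0.35. The high blue point in the alpha ring is PSMA8, a gene with few reads.

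The question put to the treated and untreated libraries was how TGF-β2 changes the transcripts of the cells. Among the constitutive proteasome genes the changes were small. The cap subunits PSMD14 and PSMD13 and the activator PSME4 rose, by 0.64, 0.28 and 0.51 on the log2 scale, and none of the 44 genes passed the test as lower, although 17 had a negative log2 fold change. With every library scaled to the same total, none of these 3 passed the test. Under limma on log2(normalized count + 1), with Benjamini-Hochberg adjustment over all 14907 genes tested, 3 of the 44 genes (6.82%) passed an adjusted p of 0.05 as higher, below the 11.6% of all genes that did. No member passed as lower, where 11.2% of all genes did, and at an unadjusted p under 0.05 limma had 5 members higher and 0 lower. DESeq2 on the recovered reads called 4 of the 44 genes higher (9.09%, against 15.0% of all genes), adding PSMD8, and edgeR's quasi-likelihood test called 2 (4.55%, against 10.8%), PSME4 and PSMD13. With the horse as a block DESeq2 called 7 (15.9%, against 19.4%) and edgeR 5 (11.4%, against 15.0%). DESeq2 lost PSMD8 and added PSMB3, PSMB6, PSMC3 and PSMD7, and edgeR added PSMC3, PSMD7 and PSMD14. Neither tool called a member lower, where DESeq2 called 16.1% of all genes (19.3% with the block) and edgeR 11.3% (14.7%), and without it each had 1 member lower at an unadjusted p under 0.05, while with it neither had one (0). With the horse as a block in limma, 6 members (13.6%) were higher, with PSMC3, PSMD7 and PSMB6 added, against a background of 15.7%, and again none was lower, against 15.3%, nor at an unadjusted p under 0.05. With the study's additional requirement of an absolute log2 fold change over 1, no member was called, where 11.5% of all genes were without the block and 14.1% with it, and none met it at an unadjusted p under 0.05 in limma without the block. With all 4 horses in the fit, each of these shares of members was below that of all genes. In bulk RNA, fewer cells that express a gene and less RNA per cell cannot be told apart.

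The cap and the core are described apart. Under the deposited normalization the median log2 change was 0.20 over the 20 cap genes, with 16 positive, and -0.07 over the 15 core genes, with 7 positive, and both medians were negative, -0.11 and -0.38, with every library scaled to the same total. The median of all genes tested was 0.01 under the deposited normalization. Over the 41 constitutive genes the median was 0.11. In all 4 horses, 10 of the 20 cap genes but 2 of the 15 core genes were higher in the treated culture, compared with 26.3% of all genes. A change to lower values in all 4 horses was seen in 1 cap gene and 3 core genes, against 25.6% of all genes. The treated and untreated libraries did not overlap, with treated above, for 3 cap genes and PSME4, and with treated below for no member, where each pattern held for 13.9% of all genes. These class values are descriptions, and the difference between cap and core was not tested.

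**Figure D2:**
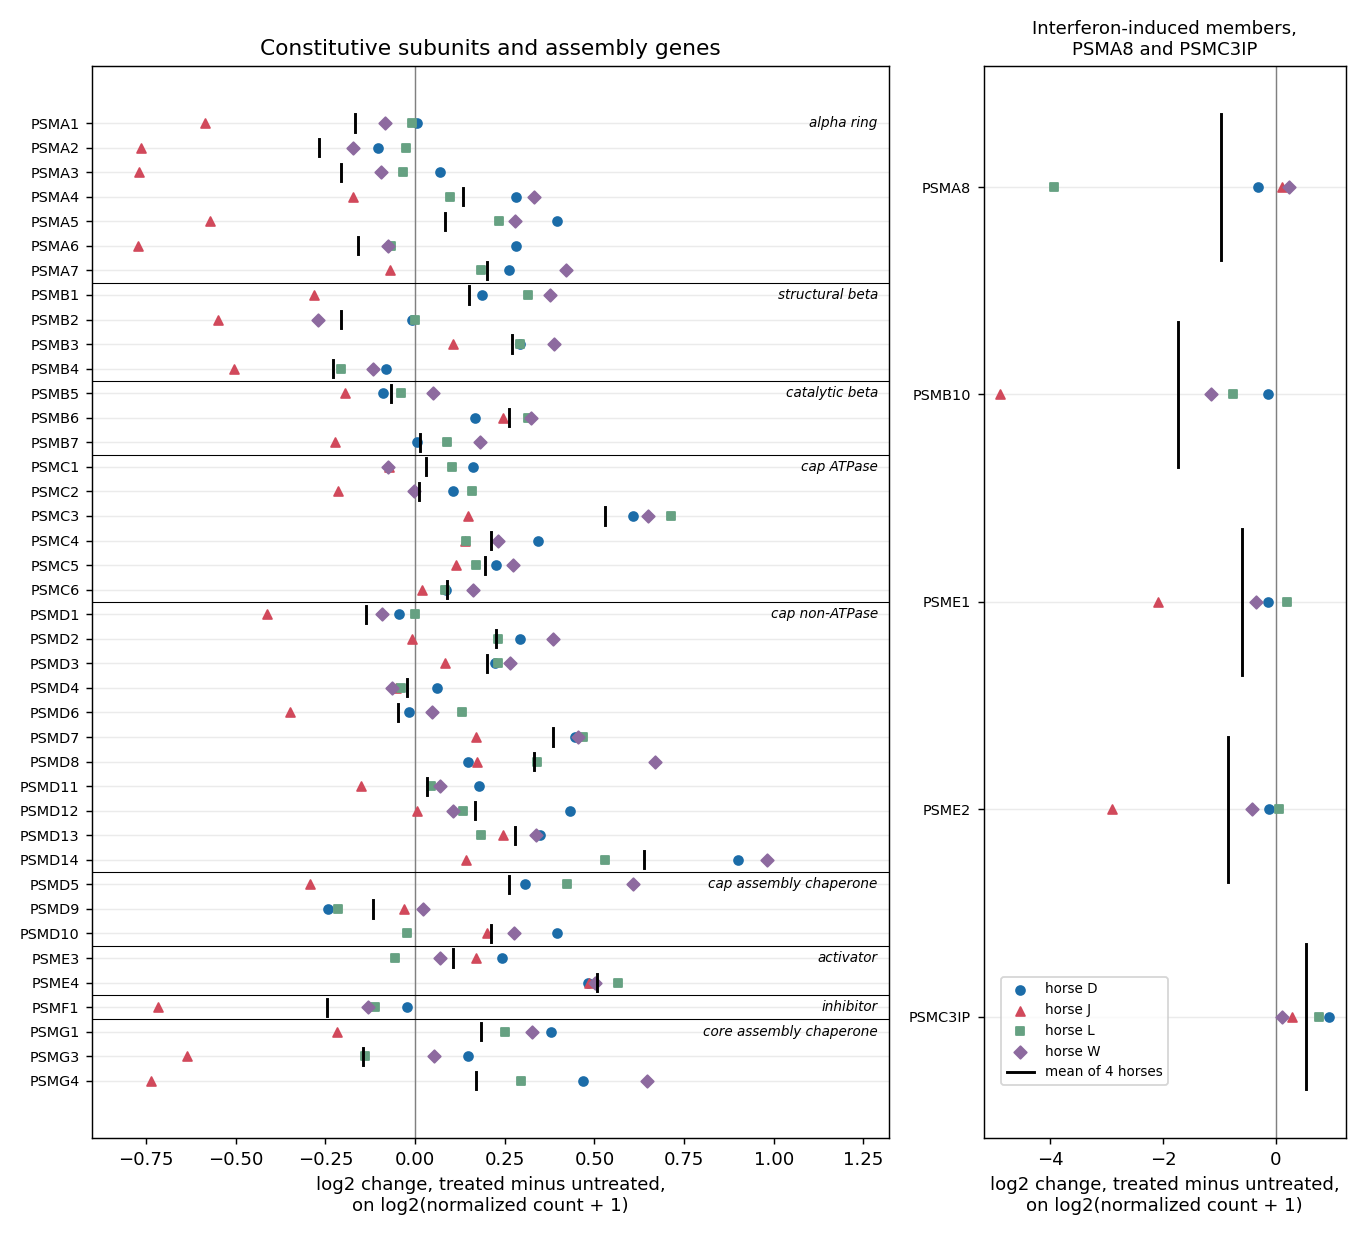
Log2 change of each gene in each horse, treated minus untreated, on log2(normalized count + 1) along the horizontal axis, with genes on the vertical axis grouped by class in the left panel and with a wider axis for the interferon-induced genes, PSMA8 and PSMC3IP in the right panel. Symbols are horses and black bars the mean of 4. Most cap genes lie right of 0 and horse J (red triangles) lies furthest left for most alpha genes, under the deposited normalization.

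PSMD14, the metalloprotease of the cap that cuts ubiquitin chains off substrates, had the largest increase of the 44 genes. It stood at 1877, 3262, 2560.2 and 1776 normalized counts in the untreated libraries of horses D, J, L and W, and at 3503, 3596, 3695 and 3504 in the treated libraries. The groups did not overlap, and the treated libraries lay within a narrow range whatever the untreated level had been. The log2 change was 0.90 in D, 0.14 in J, 0.53 in L and 0.98 in W. Its mean rose from 2369 ± 690.0 (SD, n = 4) to 3575 ± 91.2, a log2 fold change of 0.64 (SE 0.19) with an adjusted p of 0.0410 from limma, or 0.0320 with the horse as a block. Without horse D, L or W the adjusted p was 0.190, 0.118 and 0.172, past the threshold in none of them, and without horse J it was 0.0130, at a log2 fold change of 0.80. edgeR gave 0.0574, and 0.0351 with the block.

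PSMD7, the inactive partner that pairs with PSMD14 in the cap, had 2903, 3567, 2251 and 2012 normalized counts without treatment and 3956, 4014, 3117 and 2758 with it, again in the order D, J, L, W. It was higher in 4 of 4 horses, by 0.45, 0.17, 0.47 and 0.46 on the log2 scale, although the groups overlapped. Its mean log2 fold change of 0.39 (SE 0.20) missed the threshold in limma without the block, at an adjusted p of 0.212, and passed with it, at 0.0258. With the block, the call was lost without horse D, L or W (0.115, 0.0886 and 0.114) and kept without horse J (0.0108). Reads of PSMD7 may include those of ZFHX3, which overlaps it in RefSeq.

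PSMD13, a scaffold subunit of the cap, had 4368, 4845, 4612 and 4396 normalized counts in untreated D, J, L and W and 5564, 5744, 5242 and 5554 after treatment. The rise was even across the horses, from 0.18 in L to 0.35 in D on the log2 scale, and the groups did not overlap. The mean went from 4555 ± 222 (SD, n = 4) to 5526 ± 208, a log2 fold change of 0.28 (SE 0.08, limma adjusted p 0.0337, with the block 0.0413), or -0.03 with every library scaled to the same total. Leaving out horse D, L or W gave adjusted p values of 0.194, 0.0964 and 0.172, and leaving out J gave 0.0413. The span of PSMD13 overlaps SIRT3 and a non-coding RNA in RefSeq, and without the strand of the counting, reads of these genes cannot be told apart. PSMD8, a further scaffold subunit, was the other cap gene whose groups did not overlap and is named for that reason, after its values were seen. DESeq2 called it higher without the block, by 0.32 on the log2 scale (adjusted p 0.0420), but not with it (0.0548), while limma gave a log2 fold change of 0.33 with adjusted p values of 0.0664 without and 0.0741 with the block. PSMD4, the ubiquitin receptor of the cap, stood at 3133, 4036, 2688 and 2513 normalized counts without and 3272, 3890.5, 2617 and 2402 with treatment, so that each horse kept its level. Its log2 fold change was -0.02 (SE 0.20, adjusted p 0.948, with the block 0.829).

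The ATPases, which unfold the substrate and thread it into the core, all 6 had a positive log2 fold change, from 0.01 for PSMC2 to 0.53 for PSMC3, and 4 of them were higher in all 4 horses. PSMC3 had 4878, 7009, 4040.5 and 3745 normalized counts in untreated D, J, L and W and 7426, 7765, 6624 and 5870.0 in the treated libraries. It was higher by 0.61, 0.71 and 0.65 in D, L and W and by 0.15 in J, whose untreated level was already close to the treated levels. The mean rose from 4918 ± 1474 (SD, n = 4) to 6921 ± 849. Limma gave an adjusted p of 0.0907 without the block and 0.0240 with it, for a log2 fold change of 0.53 with SE 0.20. Without horse J it was 0.66 (adjusted p 0.0190, with the block 0.00451), whereas with the block the call was lost without D (0.106), L (0.0807) or W (0.109). The other 5 ATPases did not pass in either fit. Among the remaining cap genes, log2 fold changes ran from -0.14 for PSMD1 to 0.26 for the assembly chaperone PSMD5, and none of them passed.

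PSME4, the activator that caps the core without ATP and is known for degrading acetylated histones, had the most even rise. Its values were 3518, 3711, 3800.2 and 3317 normalized counts in untreated D, J, L and W and 4918, 5194, 5622 and 4693 in the treated libraries, so that every treated library was above every untreated one. The log2 change was 0.48, 0.49, 0.56 and 0.50, and the untreated library of J, apart for so many other members, lay within the range of the other untreated libraries. The mean rose from 3586 ± 215 (SD, n = 4) to 5107 ± 399.9, a log2 fold change of 0.51 with SE 0.09. Limma gave this change an adjusted p of 0.00664, and 0.00689 when the horse was a block. It was 0.0173 without J, 0.0326 without L, 0.0429 without W and 0.0616 without D. With the block PSME4 stayed under the threshold whichever horse was left out, at most at 0.0464, and it was the 1 member for which this held. PSME3, the nuclear activator related to PSME1 and PSME2, had 2995, 3925, 3700.3 and 3331 normalized counts without and 3543, 4414, 3558 and 3494 with treatment. These ranges overlapped, and its log2 fold change of 0.11 (SE 0.12) had an adjusted p of 0.572 (0.378 with the block).

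**Figure D3:**
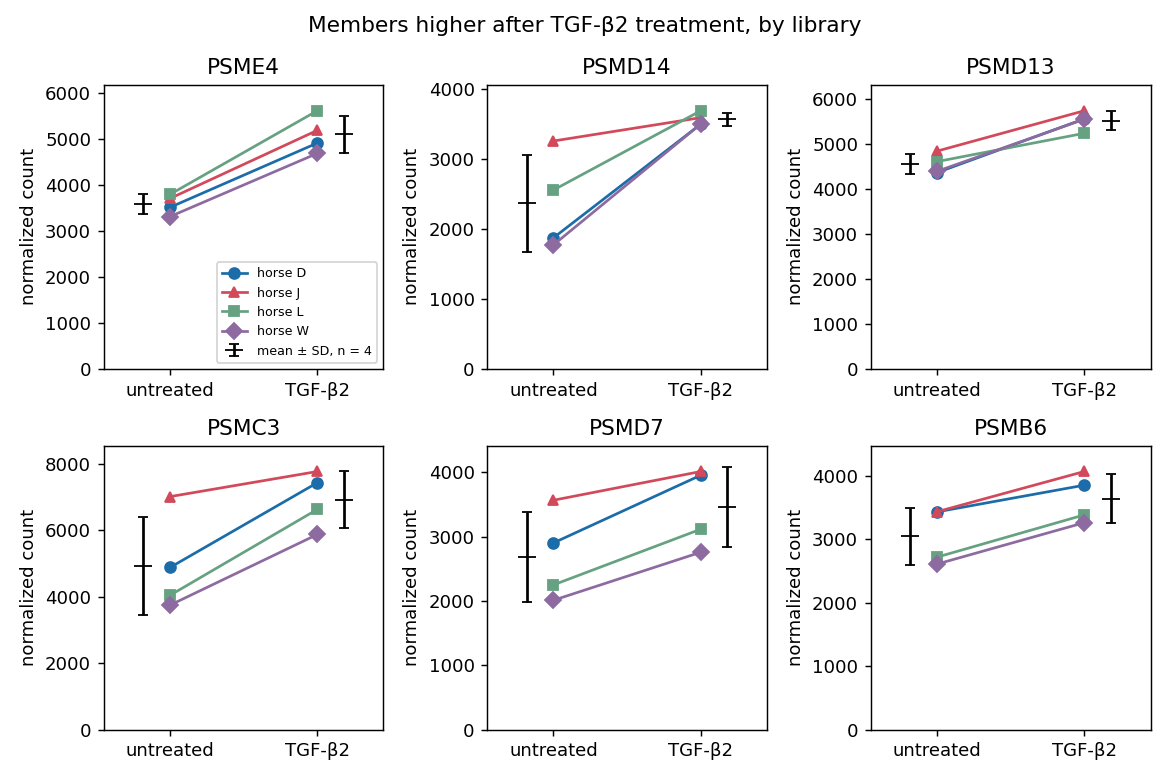
Normalized counts on the vertical axis, starting at 0, in the untreated and the treated library of each horse (lines) for the 6 genes called higher in limma with the horse as a block, with mean ± SD of 4 libraries beside each group. PSME4 rises in parallel in the 4 horses, from between 3317 and 3800.2 to between 4693 and 5622, and PSMD14 ends near the same level in all of them.

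In the core, under the deposited normalization, the catalytic subunit PSMB6 passed the test with the block and the catalytic subunits PSMB5 and PSMB7 in neither fit. PSMB5, which carries the chymotrypsin-like site, had 5173, 6045, 4096 and 4153 normalized counts in untreated D, J, L and W and 4864, 5281, 3989 and 4297 in treated libraries. Its log2 fold change was -0.07 (SE 0.15, limma adjusted p 0.790, with the block 0.545). PSMB7, with the trypsin-like site, had 3567, 4611, 2964 and 2606 without and 3583, 3953, 3156 and 2953 with treatment, a log2 fold change of 0.01 (SE 0.18, adjusted p 0.968, with the block 0.926). For both, the order of the horses was the same with and without treatment, with J highest. PSMB6, with the caspase-like site, stood at 3428, 3430.3, 2716 and 2606 and at 3848, 4064, 3381 and 3258, higher in each of the 4 horses by 0.17 to 0.32 on the log2 scale. Its log2 fold change of 0.26 (SE 0.13, or -0.05 with every library scaled to the same total) had an adjusted p of 0.181 without and 0.0475 with the block, and this call was lost when any horse was left out, at 0.125, 0.0554, 0.148 and 0.171 without D, J, L and W. The reads of PSMB5 may include those of PSMB11, which overlaps it in RefSeq.

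The alpha and structural beta subunits did not pass in either direction in limma with all 4 horses under the deposited normalization. Without PSMA8, the 7 alpha genes had log2 fold changes from -0.27 for PSMA2 to 0.20 for PSMA7, and the 4 structural beta genes from -0.23 for PSMB4 to 0.27 for PSMB3. The direction depended on the horse. The median change of these 7 alpha genes was 0.26 in D, -0.59 in J, -0.01 in L and -0.07 in W, and none of the 7 was higher in treated J, whereas 6 were higher in treated D. Without horse J the median of the core was 0.05 in place of -0.07, and the median of the 41 constitutive genes 0.22 in place of 0.11. PSMA8, the testis form of an alpha subunit, had few reads, 1.74, 22.9, 84.8 and 31.5 normalized counts in untreated and 1.19, 24.6, 4.6 and 37.2 in treated D, J, L and W. Its log2 fold change of -0.98 rested on horse L, where the change was -3.94, and it did not pass (adjusted p 0.612, with the block 0.369).

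The genes that help assemble the core, and the inhibitor, followed the alpha ring in horse J. PSMG1, PSMG3 and PSMG4 were lower in treated than in untreated J by 0.22, 0.64 and 0.74 on the log2 scale, while PSMG1 and PSMG4 were higher after treatment in the other 3 horses. None of the 3 passed the test over 4 horses, with log2 fold changes from -0.14 to 0.18. Without horse J, PSMG4 rose by 0.47 with an adjusted p of 0.0484 (0.0357 with the block). PSMF1, which inhibits the core in the test tube, had 2103, 3187, 2336 and 2383 normalized counts in untreated D, J, L and W and 2071, 1939, 2164 and 2175 in treated libraries. It was lower in each of the 4 horses, by as little as 0.02 in D and as much as 0.72 in J, and its log2 fold change of -0.25 (SE 0.13) did not pass (adjusted p 0.221, with the block 0.221). Without J it was -0.09 (adjusted p 0.506). PSMC3IP, which is no proteasome subunit, had 278, 381, 155 and 204 normalized counts without and 535, 467, 266 and 221 with treatment. Its log2 fold change of 0.53 had adjusted p values of 0.339 and 0.0798.

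Leaving out all of horse J raised the number of members called higher from 3 to 5 without the block (PSMC3, PSMD13, PSMD14, PSME4 and PSMG4), or 11.4% against 12.7% of all genes. With the block it rose from 6 to 10, where PSMA5, PSMB1, PSMB3, PSMD5 and PSMG4 were added and PSMB6 was lost, or 22.7% of the 44 genes against 18.4% of all genes. Leaving out only the untreated library of J, an alternative chosen after the data were seen, gave 7 (15.9%, against 14.6%). No member was called lower in these fits, where 12.5%, 18.4% and 14.4% of all genes were. The share of members called higher was above that of all genes without J under the block and without untreated J, and below it with 4 horses, and the difference was not tested. Leaving out any other horse gave fewer calls, 0 without D and 1 each without L or W, and with the block 1 in each case, PSME4. Calls over all 14907 genes moved in the same way, from 1734 higher with 4 horses to 478 without D, 1032 without L, 533 without W and 1900 without J. With the block they went from 2334 higher to 785, 1566, 730 and 2741 in the same order.

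The interferon-induced members were high in untreated J and intermediate in untreated W. PSMB10, the induced counterpart of PSMB7, had 289.7, 6719, 316 and 822 normalized counts in untreated D, J, L and W and 263, 225, 186 and 370.0 in treated libraries. PSME1, a subunit of the induced activator, had 2932, 11699, 2072 and 3443 and then 2674, 2732, 2388 and 2691. PSME2, its partner, had 1269, 8995, 844 and 1737 and then 1166, 1198, 873 and 1292. In the treated libraries the spread of all 3 genes was narrower, and treated J was no longer apart. Their log2 fold changes were -1.74 (SE 0.91), -0.60 (SE 0.47) and -0.85 (SE 0.65), and none passed, at limma adjusted p values of 0.208, 0.399 and 0.382, or 0.150, 0.281 and 0.252 with the block. The groups overlapped for each. PSMB10 was lower in 4 of 4 horses, with log2 changes of -0.14, -4.90, -0.76 and -1.15 in D, J, L and W. The change of PSME1 was -2.10 in J and 0.20 in L, and that of PSME2 was -2.91 in J and 0.05 in L. The median of the 3 genes was -0.85 with horse J and -0.17 without it. Reads of PSME1 may include those of EMC9, which overlaps it in RefSeq. The blood cell markers were lower in the same libraries, with a median log2 change of -1.69 over the 4 that could be tested. Of these, none (0) was called without the block and 2 were called lower with it, against 11.2% and 15.3% of all genes. Their untreated sum was highest in L, at 535 against 333 in J. The part of the blood cell markers in these values was not tested.

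PSMB8 and PSMB9, left out of the 45 by the rule, followed the same pattern. PSMB8 had 80.9, 6925, 91.4 and 679 normalized counts in untreated and 82.2, 68.5, 67.8 and 96.1 in treated D, J, L and W, and PSMB9 had 41.8, 6119, 68.8 and 432 and 27.4, 51.4, 55.2 and 96.1. Limma gave log2 fold changes of -2.46 (adjusted p 0.203, with the block 0.149) and -2.48 (0.242, with the block 0.146). DESeq2 without the block called PSMB8 lower, at -4.63 on the log2 scale (adjusted p 0.00184), and gave no adjusted p for PSMB9 or PSMB10. edgeR without the block did not call PSMB8 (adjusted p 0.0525) or PSMB9 (0.0616). Without horse J limma gave -1.07 for PSMB8 (adjusted p 0.366) and -1.02 for PSMB9 (0.449). Reads of PSMB9 may include those of TAP1, which overlaps it in RefSeq. Across the list of 12 interferon and antigen-processing genes, which includes both, untreated J was the highest of the 8 libraries for all 12. The list summed to 40960.0, 371142, 48918 and 141229 normalized counts in untreated D, J, L and W, and to 27135 to 34300.0 in treated libraries. All 12 had a negative log2 fold change, with a median of -1.47, or -0.75 without horse J, and 1 (B2M) passed as lower, against 11.2% of all genes, or 3 with the block (B2M, IRF9 and ERAP1), against 15.3%. Without horse J, 3 of the 12 passed as lower, against 12.5% of all genes, or 5 with the block, against 18.4%. Without D, L or W none (0) passed without the block, where 456, 932 and 535 of the 14907 genes tested passed as lower. With the block 1, 2 and 0 passed as lower, against 780, 1499 and 690 of all genes.

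**Figure D4:**
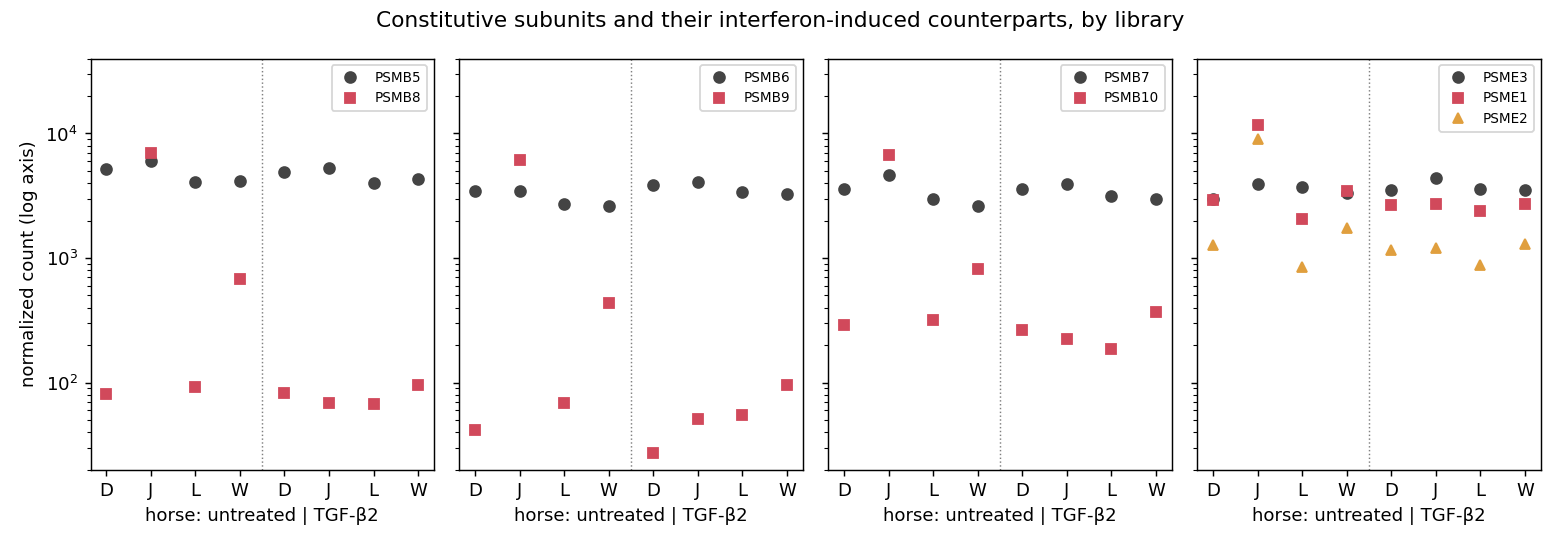
Normalized counts on a logarithmic vertical axis in the untreated (left of the dotted line) and treated libraries of horses D, J, L and W, for each constitutive subunit (black) and its interferon-induced counterpart (red, and orange for PSME2). The induced genes are highest in untreated J, and in the 4 treated libraries PSMB8, PSMB9 and PSMB10 lie between 27.4 and 370.0.

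Ratios within a library do not depend on how libraries are scaled. PSMB10 amounted to 8.12%, 146%, 10.6% and 31.5% of the reads of PSMB7 in untreated D, J, L and W, and to 7.35%, 5.69%, 5.90% and 12.5% in the treated libraries, without correction for transcript length. PSMB8 amounted to 1.56%, 115%, 2.23% and 16.3% of PSMB5 without treatment and to 1.69%, 1.30%, 1.70% and 2.24% with it. PSMB9 against PSMB6 went from 1.22%, 178%, 2.53% and 16.6% to 0.712%, 1.26%, 1.63% and 2.95%. In each of these pairs the untreated library of J was highest, followed by that of W. The standard deviation of the log2 ratio was 2.86, 3.20 and 1.89 among untreated and 0.32, 0.84 and 0.52 among treated libraries for PSMB8, PSMB9 and PSMB10, so that the treated libraries were closer together, least so for PSMB9. PSME1 amounted to 97.9%, 298%, 56.0% and 103% of PSME3 in untreated and to 75.5%, 61.9%, 67.1% and 77.0% in treated libraries. PSME2 stood at 42.4%, 229%, 22.8% and 52.1% of PSME3 and then at 32.9%, 27.1%, 24.5% and 37.0%. The mean log2 ratio, treated minus untreated, was -2.39 for PSMB8 to PSMB5, -2.74 for PSMB9 to PSMB6, -1.75 for PSMB10 to PSMB7, -0.70 for PSME1 to PSME3 and -0.96 for PSME2 to PSME3. In exact two-sided permutation tests of 4 against 4 libraries, none of the 5 ratios passed the threshold, with p values of 0.200, 0.200, 0.114, 0.200 and 0.229, each 0.229 after Benjamini-Hochberg adjustment over 5. The smallest p that 70 permutations allow is 0.0286. Within horses the ratios of PSMB9 and PSMB10 were lower after treatment in 4 of 4 horses, and those of PSMB8, PSME1 and PSME2 in 3 of 4. Permutation within horses, an exact two-sided test added after the data were seen, gave p values of 0.125 for PSMB9 and PSMB10, the smallest that its 16 permutations allow, and 0.250 for the other 3, so this test cannot reach the threshold. Without horse J these differences were -1.04, -1.29, -0.77, -0.18 and -0.25 in the same order.

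Directions of small changes depended on the scaling of the libraries. When every library was scaled to the same total, the median of all genes tested moved to -0.30, and the medians of the classes became -0.38 for the core, -0.11 for the cap and -0.21 for the constitutive genes as a whole. Relative to the median of all genes, the cap stood at 0.19, the core at -0.08 and the constitutive genes at 0.10, the same as under the deposited normalization within 0.01. With total scaling no member was called higher (background 6.0%, or 8.0% with the block). As lower, 2 were called (PSMD9 and PSMF1, 4.55% against 24.9% of all genes), or 16 with the block (36.4% against 35.2%), while calls over all genes shifted from 51.0% higher to 19.4% higher (18.5% with the block). The 16 were PSMA1, PSMA2, PSMA3, PSMB2, PSMB4, PSMB5, PSMB7, PSMC1, PSMC2, PSMD1, PSMD11, PSMD4, PSMD6, PSMD9, PSMF1 and PSMG3. With the block PSMB5 was at -0.38 (adjusted p 0.0120) and PSMD4 at -0.34 (0.0235). None of the 16 passed in limma under the deposited normalization. PSME4 and PSMD14 kept positive values of 0.20 and 0.33, PSMC3 one of 0.22 and PSMD7 one of 0.07, none of them past the threshold, and PSMD13 and PSMB6 turned to -0.03 and -0.05. Relative to the median of all genes these 6 genes stood 0.50, 0.63, 0.52, 0.38, 0.27 and 0.25 higher, in the order just given. Upper-quartile and TMM scaling left the class medians within 0.01 of the deposited ones.

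**Figure D5:**
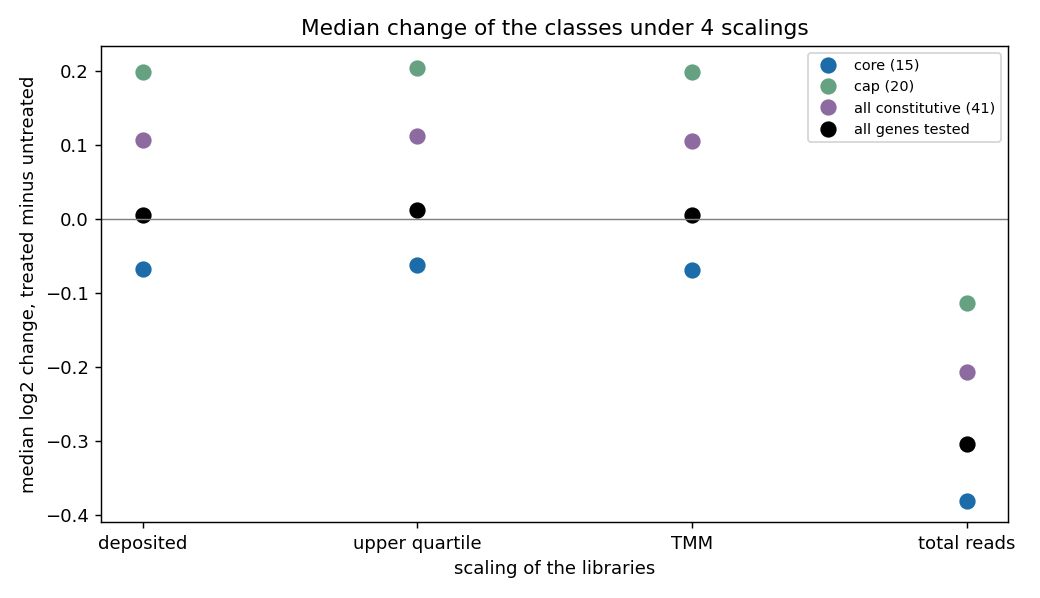
Median log2 change, treated minus untreated, on the vertical axis for the core, the cap, the 41 constitutive genes and all genes tested under each scaling of the libraries on the horizontal axis. Scaling to total reads lowers all medians together, that of all genes to -0.30, and the order cap, constitutive genes, all genes, core is kept.

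The wider ubiquitin and proteasome pathway was read from lists of genes. Of 13 genes for proteins that bind, assemble or import the proteasome, 2 passed as higher and 2 as lower in limma without the block, against the background of 11.6% and 11.2%. AKIRIN1, a relative of the factor that carries proteasomes into the nucleus, rose by 0.59 on the log2 scale (adjusted p 0.0217, with the block 0.0150). ZFAND5, which binds and stimulates the proteasome, rose by 0.38 (adjusted p 0.0428, with the block 0.0608). With every library scaled to the same total, limma gave 0.28 for AKIRIN1 (adjusted p 0.110) and 0.07 for ZFAND5 (0.756). Under that scaling no gene (0) of this list was called higher, with or without the block. The same held for the lists of shuttles, ubiquitin genes, regulators and chaperonin genes below, where 6.0% of all genes were, or 8.0% with the block. PAAF1, a chaperone of the cap ATPases, fell by 0.45 (adjusted p 0.0246, with the block 0.0274). SEM1, a small cap subunit, was listed with only 33.1, 15.5, 31.1 and 26.4 normalized counts in untreated and 8.34, 8.56, 1.15 and 6.01 in treated D, J, L and W, a log2 fold change of -2.13 with an adjusted p of 0.0245. These are few reads for a cap subunit, and the entry may hold only part of the gene. UCHL5, a deubiquitinase that docks on the cap, passed only with the block (0.57, adjusted p 0.0646 without and 0.0456 with it). POMP, the maturation factor of the core, had 2028, 3941, 1747 and 2047 normalized counts without and 2167, 2513, 1847 and 2119 with treatment, high in untreated J like the alpha ring, and did not pass (-0.11, adjusted p 0.796). ADRM1 was not analysed here.

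Of 12 genes that shuttle or extract ubiquitinated proteins, 1 passed as higher, FAF1, a cofactor of the segregase VCP (0.59, adjusted p 0.0235), and none as lower, against 11.6% and 11.2% of all genes. With the block, VCP itself (0.37, adjusted p 0.0360, without the block 0.175) and the shuttle UBQLN1 (0.32, adjusted p 0.0247, without the block 0.181) passed too. UBQLN2, another shuttle, is named after its values were seen, since the call depended on the tool. It was lower in 4 of 4 horses with groups that did not overlap, by as little as 0.01 in J (-0.52 over the 4 horses, limma adjusted p 0.0502, with the block 0.0673, and 0.0140 without J). edgeR gave 0.0440 without and 0.0719 with the block, and DESeq2 0.0144 and 0.0320. Of 6 genes for ubiquitin and its activating enzymes, UBA7 alone passed, as lower. UBA7 activates the interferon-induced modifier ISG15 and was likewise highest in untreated J, with 296, 2415, 164 and 572 normalized counts against 100.1, 87.8, 58.6 and 117 in the treated libraries (-2.52, adjusted p 0.0410, with the block 0.0262).

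Transcription factors known to act on proteasome and antioxidant genes were among those that changed. NFE2L1, which raises proteasome genes when proteasomes are inhibited, had 20169, 15212, 19800.0 and 18383 normalized counts in untreated and 11399, 13878, 16185 and 14368 in treated D, J, L and W. It was lower in 4 of 4 horses, but its log2 fold change of -0.40 (SE 0.14) missed the threshold in limma (adjusted p 0.0744, with the block 0.0729). The call depended on the tool and the scaling. Without the block DESeq2 called NFE2L1 lower (adjusted p 0.0370) and edgeR did not (0.0774). With every library scaled to the same total, limma called it lower at -0.71 (adjusted p 0.00515). Limma also did so without the untreated library of J (-0.49, adjusted p 0.0286). NFE2L2, the regulator of the oxidative stress response, fell from 5982 ± 192 (SD, n = 4) to 3651 ± 106 normalized counts, with every treated library near the same level (-0.71, adjusted p 9.60e-04, with the block 0.00374). BACH1, a repressor at the same sites, fell from 3011 ± 677 to 1353 ± 124 (-1.13, adjusted p 0.00250, with the block 0.00306). MAFK, a dimer partner of these factors, rose from 1586 ± 346 to 2692 ± 482 (0.77, adjusted p 0.0220, with the block 0.04997, just under the threshold), although it was higher in 3 of 4 horses and level in J. These 3 were the ones of 8 listed regulators to pass in limma under the deposited normalization. Of them 1 was higher and 2 were lower, against 11.6% and 11.2% of all genes. Of the genes called in these lists without the block, NFE2L2 and BACH1 stayed under the threshold whichever horse was left out. The others were lost without at least 1 horse, with the highest adjusted p at 0.108 for AKIRIN1, 0.134 for ZFAND5, 0.139 for PAAF1, 0.118 for SEM1, 0.125 for FAF1, 0.154 for UBA7, 0.129 for B2M and 0.141 for MAFK.

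Other large complexes were set beside the proteasome as a description. The 8 genes of the cytosolic chaperonin, which folds actin and tubulin, had a median log2 change of 0.33. Of the 8, 1 (CCT6A) was called higher in limma, against 11.6% of all genes, or 2 (with CCT8) under the block, against 15.7%. CCT6A was at an adjusted p of up to 0.202 with a horse left out. Without horse J, 4 of the 8 were called higher, against 12.7%, or 5 with the block, against 18.4%. Without D, L or W none (0) was called in the fit without the block, where 478, 1032 and 533 of the 14907 genes tested were called higher. Their untreated library of J stood 0.78 above the other horses at the median, close to the structural beta subunits. The 79 cytosolic ribosomal proteins had a median of 0.08, and untreated J stood 0.04 above the others. Of the 79, 1 was called higher, against 11.6% of all genes, and none (0) with the block, against 15.7%. After treatment 48, 37, 29 and 78 of them were higher in D, J, L and W. Differences between these sets and the proteasome were not tested. The 8 proliferation genes summed to 14780.1, 25289.8, 7632 and 7682 normalized counts in untreated D, J, L and W, again highest in J, and to 21948, 20145, 10586 and 4488 in treated libraries. Their part in the proteasome values was not tested.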

How the data were processed

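Paired-end reads came from poly(A)-selected RNA of 8 BM-MSC cultures, untreated and TGF-β2-treated, of 4 horses. The authors used Trimmomatic 0.36 for trimming and STAR 2.5.2b for alignment to EquCab 3.0, counted unique hits per gene with featureCounts (Subread 1.5.2) and normalized with DESeq2. They deposited normalized counts, a signal that is never negative, made of gene counts divided by a size factor per library. The strand used in counting is not given in the sources used here. Of 15267 entries, 1 without a gene name (0.0281% to 0.0531% of the values of a library) was left out.

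Whole reads were recovered from the deposited signal by dividing by the value of 1 read, and 100% of the values were whole within 0.1 read. Genes reaching 10 normalized counts in 4 or more libraries were tested with limma 3.58.1 (lmFit, eBayes with trend, R 4.3.3) on log2(normalized count + 1), which understates changes of low genes, with Benjamini-Hochberg adjustment over 14907 genes. The study names no donor term, so the model had none, and the fit with the horse as a block stands beside it. The labels name the horse of each library, and deviations from the group means correlated across genes between the 2 libraries of a horse (mean 0.480, range 0.386 to 0.609, against -0.159 between different horses). Ratios were compared by exact permutation tests in scipy 1.17.1. Alternatives were edgeR 4.0.16 and DESeq2 1.42.0 on the recovered reads, pseudocounts of 0.5 and 5, no filter and a filter at 50, total, upper-quartile and TMM scaling, no trend, each horse left out, and, added after seeing the data, the untreated library of J left out and permutation of ratios within horses. The procedures were tested on simulated data with planted changes larger than that of any member called here. That test does not show how well smaller changes are found.

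Full values are given for members past an adjusted p of 0.05 in either fit, and always for PSMB5, PSMB6, PSMB7, PSMB10, PSME1 to PSME4, PSMD4, PSMD14 and PSMF1, with NFE2L1, POMP, PSMB8 and PSMB9 (ADRM1, in the same rule, was not analysed here). Other members are given by class, and genes of the lists by counts and when past the threshold. Members and lists were chosen with earlier results of these data known. All 45 symbols were found in a RefSeq gene table of another assembly, used only for names and overlapping genes, and 12 members overlap another gene there. No sequences, promoters or transcript lengths were used here.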

Additional observations from a re-analysis of the deposited data

Results flagged for a closer look

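In 5 of the 98 groups of 4 libraries checked, 1 library lay far from the others, where chance gives about 1 in 20 groups. The check compared the gap to the nearest library with the whole range, on the log2 scale. The untreated library of horse J was far above the other untreated libraries for PSMA3, an alpha subunit, at 6723 normalized counts against 2912 to 3325. It was also far above them for PSMA6, another alpha subunit, at 5845 against 2549.8 to 2727, and for PSMD12, a cap subunit, at 2911 against 1918 to 2022. The treated library of horse L was lowest for PSME1, at 2388 normalized counts against 2674 to 2732. The treated library of horse J was highest for PSME3, at 4414 against 3494 to 3558. The check does not list every library that stood apart. It did not flag untreated J for PSMB10, PSME1 or PSME2, which had 6719, 11699 and 8995 normalized counts there. The next highest untreated library for these genes, that of W, had 822, 3443 and 1737. Whether horse, culture or library lies behind these values was not tested.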

How the results depend on the processing

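Of the counts, class medians and ratios recomputed under the alternatives, 134 values stayed within the spread or within 1.5 times the reported count and 21 moved. For the ratios, part of this was fixed in advance. Leaving out a horse cannot move a mean ratio beyond the spread between the horses, and permutation within horses leaves it unchanged. Class medians were judged against the spread of the medians of the horses, which leaves them little room to move when a horse is left out. The median of the interferon-induced genes went from -0.85 to -0.17 without horse J and still counted as within the spread. The tally therefore cannot show how far the ratios or the class medians depend on a horse. PSME1 to PSME3, for example, went from -0.70 to -0.18 without horse J. Members called higher numbered 3 as reported, 6 with the horse as a replicate block, 1 with no trend in limma, 0 with total scaling, and 0 to 7 with a horse or the untreated library of J left out. With the block the number was 6, against 3 without the block, 0 with total scaling, and 1 to 10 with a horse left out. Members called lower numbered 2 with total scaling and 16 with total scaling and the block, against 0 otherwise. In limma the block changed no other call named here among the members. In DESeq2 the block ended the call of PSMD8 and added PSMB3, PSMB6, PSMC3, PSMC3IP and PSMD7. In edgeR it added PSMC3, PSMD7 and PSMD14. For ZFAND5, UCHL5, VCP and UBQLN1 its value stands beside the result. With total scaling the median log2 change became -0.38 for the core, -0.11 for the cap and -0.21 for the constitutive genes. With a horse or the untreated library of J left out, it ran from 0.16 to 0.31 for the cap and from 0.064 to 0.26 for the constitutive genes.

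Genes that changed sign were near 0 or depended on the scaling. With total scaling PSMB6 and PSMD13 were at -0.050 and -0.033, with or without the block, PSMB7 at -0.30 and PSME3 at -0.21. PSMB7 was at -0.013 in DESeq2, at -0.013 in edgeR, and ran from -0.042 to 0.17 when a horse or the untreated library of J was left out. Over the same settings POMP ran from -0.17 to 0.15, PSMB5 from -0.11 to 0.043 and PSMD4 from -0.053 to 0.11. The cause of these reversals was not tested beyond the construction of each setting. Of the values of single genes, 285 kept their direction and their side of the threshold, 33 lost and 10 gained significance, and 14 changed sign.

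With 1 library per horse and condition, p-values without the block measure the spread between horses and cultures together. With the horse as a block, or with permutation within horses, they measure how far the treated minus untreated difference varies between horses. That variation includes differences between cultures. PSMA8 and SEM1 rest on few reads, so counting error limits them, and intervals or floors would cover counting error only.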
